A study of Homo sapiens and Mus musculus with 74 samples.

Results

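Ribosome-protected fragments (RPFs, the stretches of mRNA that translating ribosomes shield from nuclease) were compared between the brains of Rpl41 knockout (KO) and wild-type (WT) mice. The comparison rests on 6 of the 74 samples of the series, 3 WT and 3 Rpl41 KO mouse brain Ribo-seq libraries, which were taken by their labels from a table of read counts per transcript. Each gene was represented by its coding transcript with the longest protein in GENCODE M21, which left 22484 genes, of which 14446 had enough reads to be tested. The mice were C57BL/6J males aged 10 weeks. The KO allele, made in zygotes with CRISPR-Cas9, lacks the whole coding sequence of Rpl41 in every cell, and the mice came from crosses of heterozygotes. No treatment was given, so genotype is the only difference that the labels name. Brain RNA-seq and kidney Ribo-seq libraries of the same genotypes, again 3 of each, were used beside them.

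Rpl41 encodes eL41, the smallest protein of the cytosolic ribosome. It is a single helix of mostly basic residues, lies at the interface of the subunits as the bridge eB14 and reaches towards the decoding centre of the small subunit. Bridges between the subunits hold them together and move as the small subunit rotates during each step of elongation. The frame that encodes it is shown because it is what the allele removes, with the arginine and lysine codons in capitals (17 of 25 codons).
Rpl41 coding sequence, 5′ to 3′, without its stop codon: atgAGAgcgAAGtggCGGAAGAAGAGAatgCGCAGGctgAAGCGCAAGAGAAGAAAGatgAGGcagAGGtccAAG
In GRCm38 this frame of 75 bases lies on the minus strand of chromosome 10, in 3 exons that with the stop codon span positions 128548387 to 128548960, and 3 annotated transcripts carry it.

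The loss of Rpl41 was visible in every KO library. The annotated transcript with the longest protein, used for the test and overlapping those 3, had 70, 37 and 76 reads in WT libraries 1, 2 and 3 and 2, 4 and 0 in KO libraries 1, 2 and 3, the same counts as 1 of the 3. In CPM (reads scaled to the library total and its TMM factor), Rpl41 went from 13.9 ± 1.47 (SD, n = 3) in WT to 0.294 ± 0.255 (SD, n = 3) in KO. Its footprints fell by 5.36 in log2 units, with a standard error of 0.42 (edgeR's quasi-likelihood test, adjusted p = 0.00145 after Benjamini and Hochberg over the genes tested). Rpl41 mRNA fell by 10.42 in log2 units, with a standard error of 0.25 (edgeR, adjusted p = 5.6e-08). Standard errors here and below were derived from that test, as the absolute log2 fold change divided by the square root of its F statistic. The KO value rests on 6 reads in all, so the size of the fall in footprints and its standard error are uncertain.

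Depth differed between the 6 libraries. Reads on the chosen transcripts ranged from 2401861 in WT library 2 to 9224040 in KO library 2, and over all transcripts from 9498663 to 35881929. Markers of neurons, astrocytes and oligodendrocytes were all detected, with summed levels of 8725 to 10470, 5837 to 6282 and 5108 to 5953 CPM in WT, so the tissue label holds. The libraries did not sort by genotype alone. In a principal component analysis of log2 CPM, the first component held 40.2% of the variance and had KO libraries 2 and 3 at one end, WT library 2, the shallowest, at the other, and KO library 1 on the same side as WT libraries 1 and 2. Pituitary hormone genes marked WT library 3: growth hormone (Gh) stood at 2214 CPM there against 0.557 and 3.37 in WT libraries 1 and 2 and 0.22 to 45.6 in KO, and Pomc at 358 CPM against 2.97 to 23.4 elsewhere. A list of 22 pancreas, liver, kidney and muscle markers summed to 1590, 1595 and 590.5 CPM in WT and, in the same order of libraries, to 1119, 459.6 and 450.8 CPM in KO, although in RNA-seq of the brains it never exceeded 23.54 CPM. Serum albumin (Alb) was its most abundant gene, from 218 CPM in KO library 3 to 968 CPM in WT library 2.

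Across the brain, only 2 of the 14446 genes tested passed an adjusted p of 0.05 (0.0138%), and both fell in KO. Besides Rpl41 this was Lypd5, a gene for a protein of the Ly6 and PLAUR domain family. Lypd5 (chromosome 7, 24349196 to 24355109, plus strand) had 33, 27 and 34 reads in WT libraries and 0 in each KO library. Against a floor of 3 reads over the KO group, its footprints were at least 44.0-fold lower (adjusted p = 0.0311, edgeR). Lypd5 had too few reads in brain RNA-seq to be tested there. The call for Lypd5 was lost when any library other than KO library 1 was left out (edgeR adjusted p from 0.085 to 0.145). In kidney its footprints stood at 4.54 to 4.84 CPM in WT and 0 to 0.352 CPM in KO. Its transcript shares no stretch of 18 bases with any Rpl41 transcript, and Supt16 is the 1 other tested gene that does.

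Below that threshold the genes did not move evenly. All 3 KO libraries lay above all 3 WT libraries for 1515 genes (10.5% of those tested) and below them for 1307 (9.05%). At an unadjusted p under 0.05, 1155 genes were higher (8%) and 855 lower (5.92%). Other tools called more genes at an adjusted p of 0.05: DESeq2's Wald test called 161 (1.11%), with 142 higher in KO (0.983%) and 19 lower (0.132%). Limma's voom with quality weights called 73 (0.505%), with 40 higher (0.277%) and 33 lower (0.228%). Both called 40 genes (0.277%), of which 34 were higher (0.235%) and 6 lower (0.0415%). DESeq2 gave no adjusted p for Rpl41 or Lypd5. Values below are from edgeR unless another tool is named, and genes other than Rpl41 and Lypd5 did not pass its adjusted threshold.

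**Figure D1:**
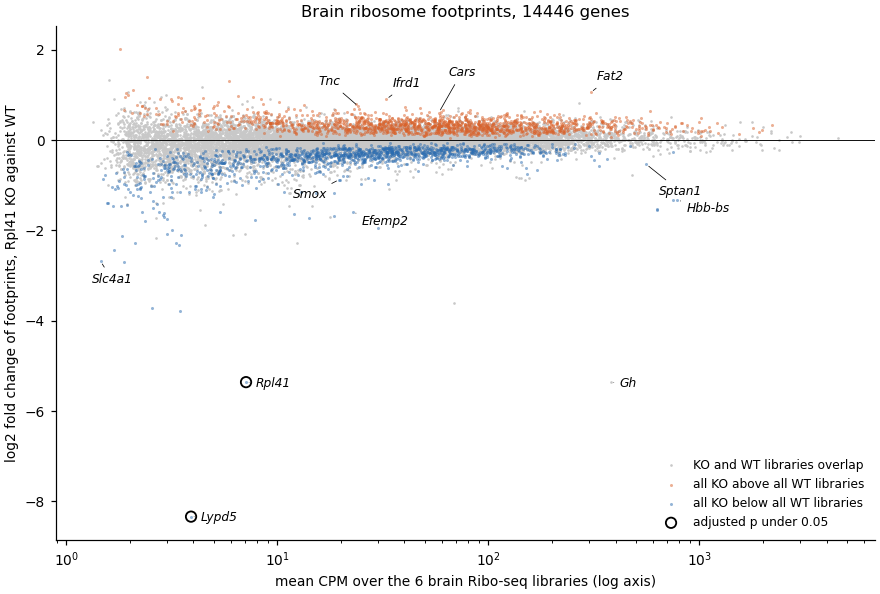
Log2 fold change of brain footprints (KO against WT, vertical axis) against the mean CPM of the 6 libraries (log axis) for the 14446 genes tested, with genes coloured by whether the 3 KO libraries lie above, below or among the WT libraries. Only Rpl41 and Lypd5, circled, pass the adjusted threshold, and Gh, far below 0, is set by WT library 3 and its groups overlap.

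Genes here and in the next paragraph were taken from non-overlapping genes with a mean count of at least 100. Those nearest to the threshold did varied work. Aqp8 (-3.78, edgeR adjusted p = 0.065) and Adamtsl3 (-1.17, edgeR adjusted p = 0.0889) were as near but were not picked by that rule. Efemp2 (fibulin 4, an extracellular protein needed to assemble elastic fibres) had 29.3, 46.4 and 27.7 CPM in WT and 10.4, 9.57 and 13.3 CPM in KO, so the groups are far apart (-1.60 in log2 units, standard error 0.21, adjusted p = 0.065). Its mRNA value was -0.01 (standard error 0.13). Smox, the spermine oxidase, had 25.8, 22.4 and 27.8 CPM in WT and 13.7, 14.1 and 14.0 CPM in KO (-0.88, standard error 0.13, adjusted p = 0.108). Among genes higher in KO, Ifrd1, a transcriptional coregulator whose mRNA carries an upstream reading frame, came first, with 21.7, 24.0 and 23.3 CPM in WT and 36.3, 45.3 and 46.4 CPM in KO (0.90, standard error 0.13, adjusted p = 0.0889). Limma voom called all of these, with adjusted p of 0.0104 for Efemp2, 0.0270 for Smox and 0.0227 for Ifrd1, and DESeq2 gave none of them an adjusted p.

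Other genes with all KO libraries above all WT libraries and the smallest p-values were Tnc (tenascin C, a matrix glycoprotein, 0.74), Inpp5f (a phosphoinositide phosphatase, 0.58), Cars (cysteinyl-tRNA synthetase, 0.61), Tenm1 (teneurin 1, a synaptic adhesion protein, 0.61), Fam13b (0.63), Top2b (DNA topoisomerase IIβ, 0.57), F5 (coagulation factor V, 0.74) and Fat2 (a giant cadherin, 1.05). On the low side they were Ppp1r9b (spinophilin, a scaffold of dendritic spines, -0.58), Abhd17a (a depalmitoylating enzyme, -0.61), Mapk8ip1 (a scaffold of the JNK cascade, -0.49), Rnf10 (-0.53), Ccni (cyclin I, -0.55), Ly6c2 (-0.97) and Ppp1r16b (-0.50). Their adjusted p-values were between 0.142 and 0.215. For Fat2, WT library 3 (278 CPM) stood between WT libraries 1 and 2 (160 and 157 CPM) and KO (368, 442 and 429 CPM). In brain RNA-seq the log2 fold changes of Inpp5f, Tenm1, Fam13b, Top2b and Fat2 were -0.02, -0.02, 0.00, -0.07 and -0.06.

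To describe functions, 60 gene lists were placed in each library by the median, over the tested members, of log2 CPM minus the gene's mean over the 6 libraries, with the median over all genes taken off. This list level put all KO libraries above all WT libraries for 9 lists and below them for 4, while for 47 lists the groups overlapped. The lists are described by counts and medians, and no test of a list was made. Leaving out KO library 1 gave 32 lists without overlap in place of 13, and leaving out WT library 1 or 2 gave 21 or 20. Groups with fewer libraries overlap less readily, and the libraries that remain are the same. Removing 1 changes their order only through the recalculated medians. List levels without 1 library are therefore a description and no independent support. Genes flanking Rpl41 were among the 9, but with 4 of 32 above and 1 below (median 0.03) their share above was near that of all genes.

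**Figure D2:**
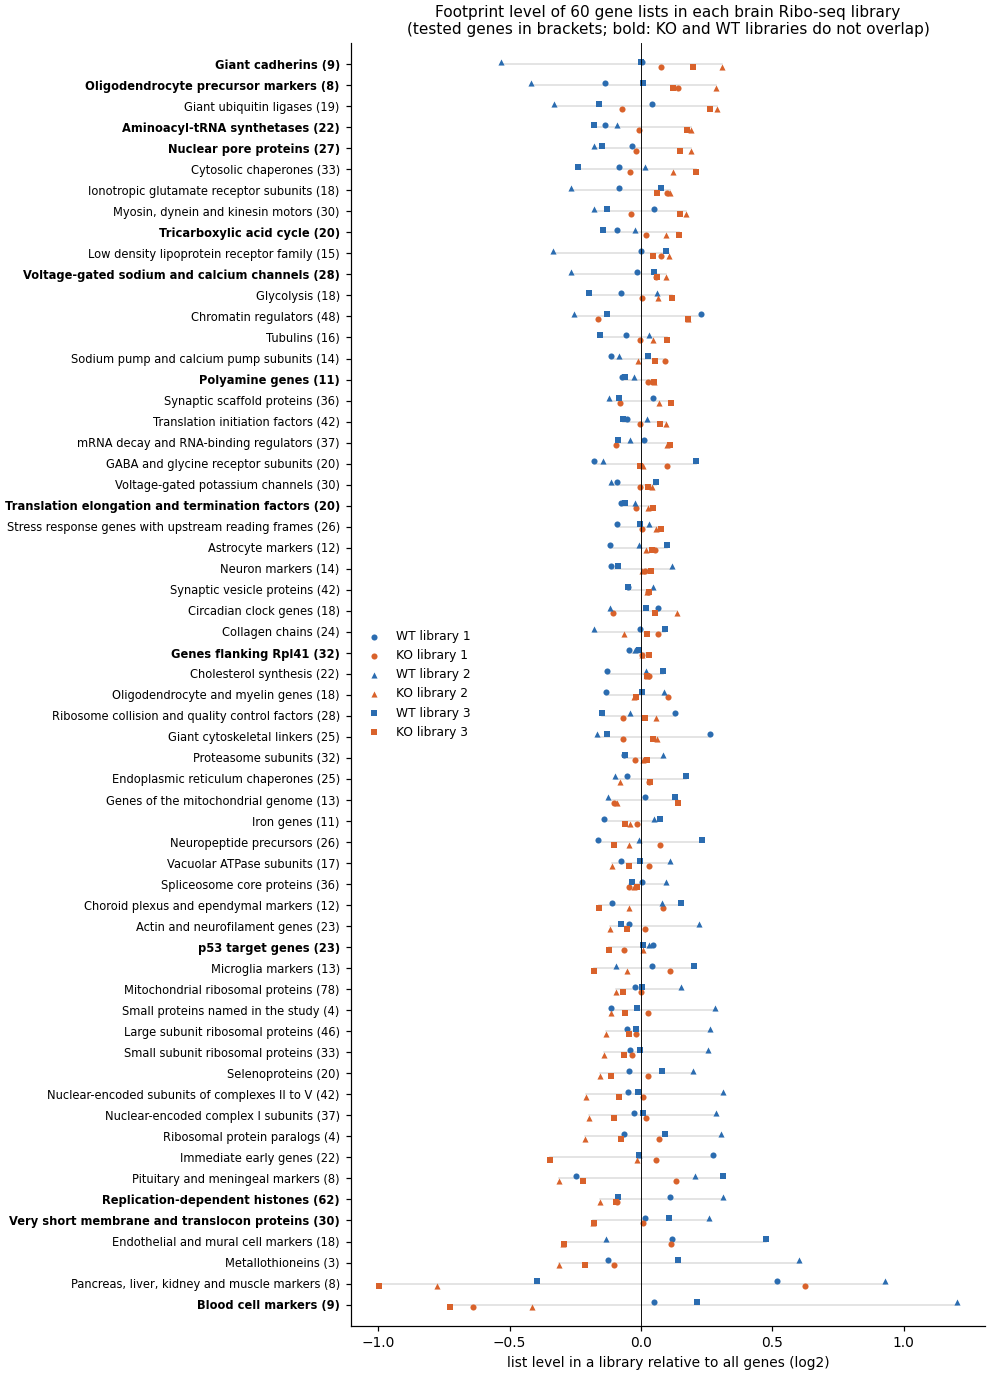
Level of each of 60 gene lists in the 6 brain Ribo-seq libraries, relative to all genes (log2, horizontal axis), ordered by the difference between the KO and WT means, with 1 point per library. Aminoacyl-tRNA synthetases, giant cadherins and oligodendrocyte precursor markers stand among the highest lists in KO and blood cell markers at the bottom, and WT library 2 and KO libraries 2 and 3 are the extreme points of many lists.

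The translation machinery was not uniform. Aminoacyl-tRNA synthetases, which charge tRNAs with their amino acids, listed with their cofactors Aimp1 and Aimp2, were the most uniform of its lists: all KO libraries lay above all WT libraries for 15 of the 22 tested members and below them for none, and 13 members were higher at an unadjusted p under 0.05. Their median log2 fold change was 0.25 in footprints and 0.07 in mRNA. The list level was -0.135, -0.0909 and -0.179 in WT (in the order of library number) and -0.00695, 0.190 and 0.176 in KO. The groups stayed apart in each of the 6 recalculations without 1 library, with differences from 0.221 to 0.316. Cars led the list, with 44.4, 49.4 and 45.1 CPM in WT and 68.6, 69.3 and 72.6 CPM in KO (0.61, standard error 0.10, adjusted p = 0.142). Aars, the alanyl-tRNA synthetase and the most abundant member with Nars, had 263, 246 and 239 CPM in WT and 314, 381 and 368 CPM in KO (0.51, standard error 0.11, adjusted p = 0.215). Nars, for asparagine, had 252, 270 and 227 CPM against 291, 305 and 317 CPM (0.29, standard error 0.10). At the other end, Kars, for lysine, overlapped between the groups (0.12, standard error 0.11). DESeq2 called 4 members, all higher, and limma voom 2.

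Initiation factors were less uniform, with 8 of 42 tested members above, 3 below and a median of 0.09. Eif5, which triggers GTP hydrolysis once the start codon is found, had 116, 116 and 126 CPM in WT and 162, 156 and 181 CPM in KO (0.48, standard error 0.10, adjusted p = 0.215). Eif3a, the scaffold of the eIF3 complex, had 196, 187 and 159 CPM against 234, 265 and 269 CPM (0.50, standard error 0.11). Of 20 elongation and termination factors, 4 lay above and 1 below (median 0.03). The release factor genes Gspt1 (0.38, standard error 0.11) and Gspt2 (0.46, standard error 0.15) were among the 4. Among 28 factors that sense or resolve stalled and collided ribosomes, 3 lay above (10.7%) and 1 below (3.57%). The share above was thus near the 10.5% of all genes, and the share below was under their 9.05%. Nemf, which extends nascent chains on stalled large subunits, was higher (57.2, 48.5 and 56.2 CPM against 63.3, 83.8 and 87.2 CPM), while Rnf10, a ubiquitin ligase of small subunit proteins, was lower (55.9, 56.5 and 61.0 CPM against 38.9, 38.4 and 43.4 CPM).

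Ribosomal proteins had negative medians. None of 46 large subunit genes lay above in all KO libraries and 6 lay below (13.0%, median -0.14). Of 33 small subunit genes none lay above and 4 below (12.1%, median -0.17). For all genes the shares were 10.5% above and 9.05% below. Among members of at most 200 amino acids, 5 of 31 and 4 of 23 lay below (medians -0.188 and -0.201). Of all 1899 tested genes of that length, 397 lay below and 19 above (median -0.179). Their mRNA medians were 0.02 and -0.01. Rpl22 had 44.9, 57.8 and 50.3 CPM in WT and 42.0, 40.8 and 34.2 CPM in KO (-0.37, standard error 0.13, adjusted p = 0.272), and Rps23 had 48.8, 60.3 and 48.1 CPM against 44.0, 42.6 and 43.1 CPM (-0.26, standard error 0.12). Rps27l, a paralog of Rps27, had -0.44 (standard error 0.17, adjusted p = 0.309) with overlapping groups. WT library 2 was the highest point of both ribosomal lists, and without it the difference in list level between KO and WT went from -0.129 to -0.0249 for the large subunit and from -0.150 to -0.0658 for the small. Among 78 mitochondrial ribosomal proteins 6 lay above and 16 below (median -0.09), and the members below included Mrps21 (-0.42, standard error 0.12) and Mrps12 (-0.42, standard error 0.13).

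Lists of protein folding and turnover had medians from 0.01 to 0.30. Of 33 cytosolic chaperone genes, 8 lay above and 1 below, with a median of 0.17. Hspa4 and Hspa4l, nucleotide exchange factors of HSP70, had log2 fold changes of 0.48 (standard error 0.11) and 0.45 (standard error 0.10): Hspa4 went from 354, 358 and 325 CPM to 423, 507 and 518 CPM, and Hspa4l from 284, 302 and 284 CPM to 361, 404 and 424 CPM. Both were called by DESeq2 (adjusted p = 0.00536 each) and limma voom (0.0495 each). The abundant Hspa8 overlapped between the groups (0.18, standard error 0.15). Endoplasmic reticulum chaperones had a median of 0.01, with 1 of 25 above and 2 below, and Xbp1, the transcription factor of the unfolded protein response, had -0.25 (standard error 0.15). Proteasome subunits had a median of 0.02 (3 of 32 above, 1 below). Giant ubiquitin ligases had a median of 0.30 with 5 of 19 above and none below, among them Ubr1 (0.38, standard error 0.11), which reads destabilizing N-terminal residues, and Zzef1 (0.43, standard error 0.13). For the most abundant ligase, Huwe1, the groups overlapped, with 446, 337 and 378 CPM in WT and 410, 509 and 511 CPM in KO, of which KO library 1 lay among the WT values.

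Lists of energy metabolism differed in direction and also in protein length. Median lengths were 443.5 amino acids for cycle enzymes and 463 for glycolysis, against 149 for complex I and 131.5 for complexes II to V. Pathway and length were not separated by a test. Enzymes of the tricarboxylic acid cycle were higher: all KO libraries lay above all WT libraries for 11 of 20 and below for none. Their medians were 0.19 in footprints and 0.13 in mRNA. The list levels stayed apart in each of the 6 recalculations without 1 library (0.146 to 0.206). Pcx, the pyruvate carboxylase that refills the cycle, had 122, 109 and 117 CPM in WT and 150, 189 and 172 CPM in KO (0.55, standard error 0.11, adjusted p = 0.215). Sdha, the flavoprotein of succinate dehydrogenase, had 516, 541 and 496 CPM against 623, 670 and 667 CPM (0.34, standard error 0.10). In glycolysis 3 of 18 lay above and none below (median 0.14), led by Hk1 (0.44, standard error 0.12) and Pfkm (0.39, standard error 0.11), which encode hexokinase and phosphofructokinase.

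**Figure D3:**
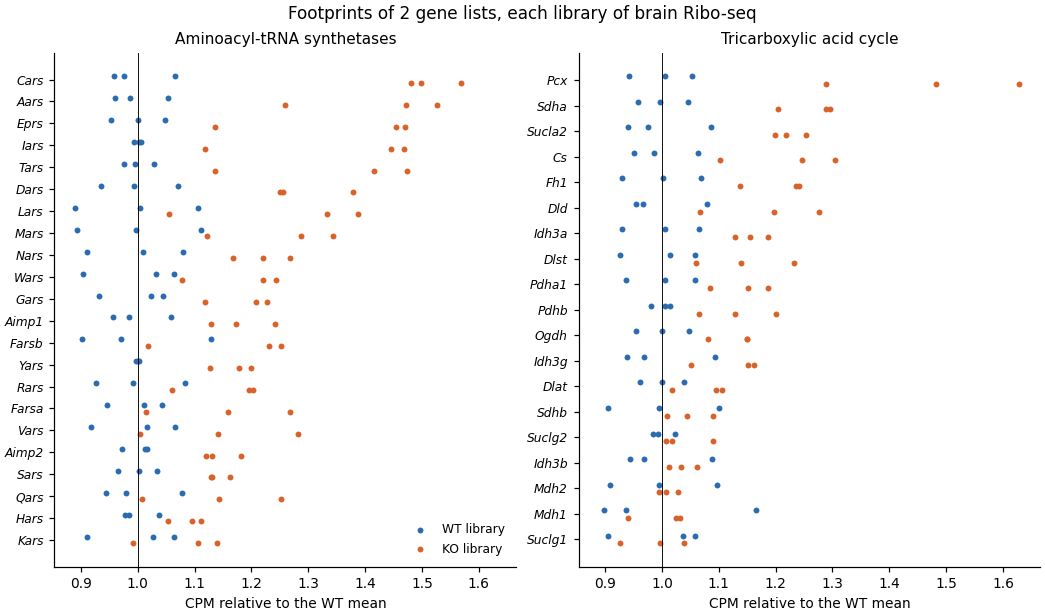
CPM of each library relative to the gene's WT mean (horizontal axis) for the 22 aminoacyl-tRNA synthetase genes and 19 genes of the tricarboxylic acid cycle, with 1 point per library and genes ordered by log2 fold change. For Cars, Aars and Pcx the 3 KO points lie clear of the WT points, while for Kars and Suclg1 they mix.

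Subunits of the respiratory chain had negative medians, with overlapping list levels. Of 37 nuclear-encoded complex I subunits 3 lay above and 10 below (median -0.20), and of 42 subunits of complexes II to V 3 lay above and 6 below (median -0.18), although the mRNA medians were 0.14 and 0.12. Without WT library 2 the difference in list level went from -0.183 to -0.0749 for complex I and from -0.178 to -0.0571 for the other complexes. The division followed size: of the 27 complex I subunits of at most 200 amino acids 10 lay below and none above, and of the 10 longer ones 3 lay above and none below. The same limit separated complexes II to V (of 31 short subunits 6 below and none above, of 11 longer ones 3 above and none below). Among all genes tested, 397 of the 1899 short ones lay below and 19 above. Of the 12547 longer ones 1496 lay above and 910 below. Ndufs1, the long iron-sulfur subunit of complex I, had 261, 277 and 277 CPM in WT and 335, 371 and 367 CPM in KO (0.40, standard error 0.10), whereas the short Ndufa2 had 110, 123 and 99.8 CPM against 89.6, 81.8 and 84.5 CPM (-0.37, standard error 0.11). The short cytochrome oxidase subunits Cox7c (-0.42, standard error 0.15) and Cox6a1 (-0.33, standard error 0.13) lay below as well. None of the 13 genes of the mitochondrial genome, which mitochondrial ribosomes translate, lay above or below (median -0.04).

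That relation to protein length ran through the whole table. Genes were divided into 10 bins of like size by protein length. In the shortest bin (at most 176 amino acids) the footprint median was -0.19 (log2), with 12 of 1457 genes above and 323 below. In the longest bin (from 1198 amino acids) it was 0.12, with 247 of 1444 above and 54 below. The median was higher at each step between. The mRNA medians ran the opposite way, from 0.06 to -0.13, and kidney footprints the same way, from -0.25 to 0.26. Within the brain the libraries differed in how far they showed it: the level of the shortest bin was -0.00186, 0.247 and 0.0618 in WT (in the order of library number) and 0.00234, -0.168 and -0.129 in KO, and that of the longest bin 0.0808, -0.207 and -0.0773 in WT and -0.0428, 0.125 and 0.112 in KO. KO library 1 thus lay within the WT range at both ends, and WT library 2 and KO libraries 2 and 3 formed the extremes. Coding GC content, which differs with length only weakly (Spearman's rho -0.0849 over 14446 genes), gave a similar slope, from a median of 0.08 in the bin lowest in GC to -0.14 in the highest. What part length, GC content or the make-up of these libraries has in the list values was not tested.

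**Figure D4:**
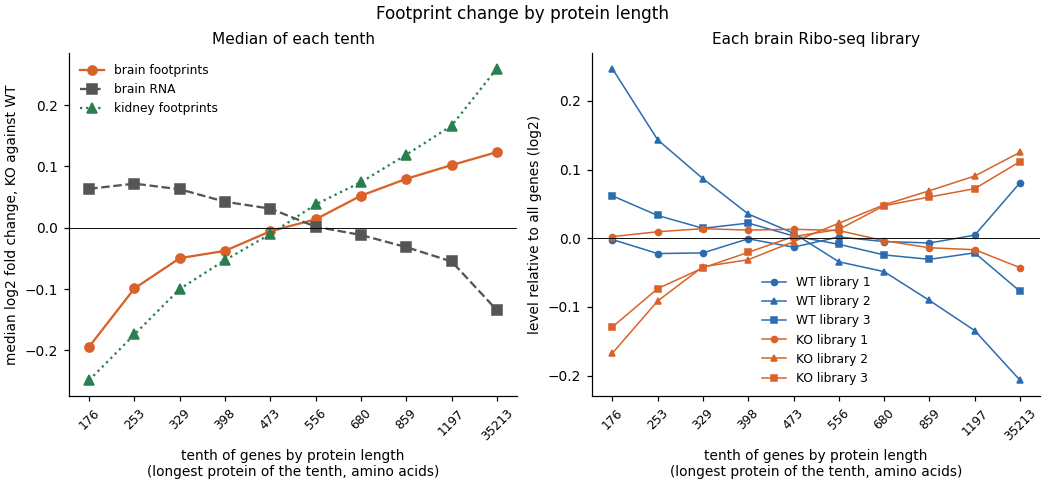
Genes in 10 bins by protein length (horizontal axis, labelled with the longest protein of each bin in amino acids). Left, the median log2 fold change (KO against WT) of brain footprints, brain RNA and kidney footprints; right, the level of each bin in each brain Ribo-seq library relative to all genes (log2), where KO library 1 stays near 0 and WT library 2 and KO libraries 2 and 3 diverge.

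Lists of short proteins were lower, and lists of long proteins varied. In the shortest bin of all genes 22.2% lay below and 0.824% above, and in the longest 17.1% lay above and 3.74% below. Very short membrane and translocon proteins had 11 of 30 below and none above (median -0.205), for example Smim10l1 (48.3, 49.4 and 40.3 CPM against 37.4, 30.6 and 25.1 CPM) and Smim7 (47.7, 46.0 and 45.6 CPM against 38.5, 32.9 and 34.9 CPM). Replication-dependent histones had 13 of 62 below (21.0%) and none above (median -0.23), a share below near that of the shortest bin. Examples were Hist1h2bh (-0.47, standard error 0.14) and Hist1h3e (-0.40, standard error 0.14). Histone genes are near-identical copies, so reads can be split among them. The 3 metallothioneins, small metal-binding proteins, had negative values, and for Mt3 alone the groups did not overlap: Mt1 -0.43 (standard error 0.17), Mt2 -0.55 (standard error 0.20) and Mt3 -0.44 (standard error 0.15). Nuclear pore proteins had 8 of 27 above and none below (median 0.27), and their list level stayed apart in 2 of the 6 recalculations without 1 library. Nup133 had 53.6, 45.1 and 43.7 CPM against 60.6, 87.8 and 76.3 CPM (0.66, standard error 0.15), and Nup107 had 0.46 (standard error 0.13). Nup98, which mediates transport through the pore, overlapped (0.37, standard error 0.17). Myosin, dynein and kinesin motors had 7 of 30 above and none below (median 0.22), among them Kif3a (0.41, standard error 0.10) and Myo6 (0.37, standard error 0.10). Giant cadherins had 5 of 9 above and none below (median 0.27), with a difference in list level of 0.370 that became 0.175 without WT library 2. Other lists of long proteins lay nearer to all genes: chromatin regulators had 1 of 48 above and none below (median 0.09), giant cytoskeletal linkers 3 of 25 above and 4 below (median 0.05), and collagen chains 4 of 24 above and 2 below (median -0.03). Ahnak, the giant scaffold protein, had 136, 138 and 173 CPM in WT and 211, 191 and 174 CPM in KO (0.36, standard error 0.12), with an mRNA value of -0.60.

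The spectrins ran against their length. These long proteins form the membrane skeleton under axons and dendrites, and they were singled out after their values were seen. Sptan1, the α subunit, had 752, 569 and 667 CPM in WT and 491, 486 and 394 CPM in KO (-0.54, standard error 0.13, adjusted p = 0.22). Sptbn1 had 469, 323 and 400 CPM against 290, 274 and 242 CPM (-0.57, standard error 0.14), and Sptb -0.56 (standard error 0.16), so all 3 genes lay below in all KO libraries. Sptbn4 overlapped (-0.22, standard error 0.16). The mRNA values of Sptan1 and Sptbn1 were of the same size, -0.54 (standard error 0.15) and -0.52 (standard error 0.13), and did not pass the adjusted threshold either. DESeq2 called Sptan1 and Sptbn1 lower (adjusted p = 0.00536 each).

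Lists of neuronal channels, receptors, pumps, synaptic proteins and neuropeptide precursors had medians from -0.04 to 0.15, beside -0.01 for all genes. Voltage-gated sodium and calcium channels had 8 of 28 above and 1 below (median 0.13), and their list level lay above WT in all KO libraries, with a difference of 0.149 that became 0.0574 without WT library 2. The list was led by Cacna1e (0.39, standard error 0.14). Ionotropic glutamate receptor subunits had 4 of 18 above and 1 below (median 0.15), and the 1 below was Grik5 (-0.28, standard error 0.10). Glra1, a glycine receptor subunit of hindbrain and spinal cord, had 36.2, 34.2 and 52.7 CPM against 59.7, 67.6 and 64.5 CPM (0.62, standard error 0.16), and Slc6a5, the neuronal glycine transporter, 60.9, 54.8 and 74.5 CPM against 90.0, 95.5 and 94.6 CPM (0.54, standard error 0.12); for Glra1 the mRNA value was 0.70 (standard error 0.31). Potassium channels had 2 of 30 above, Kcna6 (0.35, standard error 0.09) and Kcnd2 (0.35, standard error 0.11), and 2 below (median 0.08), both shares under those of all genes. Synaptic vesicle proteins had 8 of 42 above and 2 below (median 0.05), for example Syn3 (0.48, standard error 0.14) and Syt2 (0.46, standard error 0.13), and synaptic scaffolds 6 of 36 above and 4 below (median 0.06), with Shank3 lower (86.1, 68.3 and 58.6 CPM against 53.1, 51.9 and 53.2 CPM). Of 26 neuropeptide precursors none lay above and 6 below, including Cartpt (-0.54, standard error 0.15) and Pcsk1n (-0.44, standard error 0.12), although the list's mRNA median was 0.25. Pumps of sodium and calcium had 6 of 14 above and 1 below (median 0.10), with Atp2b3, a calcium pump of the plasma membrane, at 0.44 (standard error 0.12). Among tubulins, Tubb4a had 995, 1022 and 995 CPM in WT and 1195, 1200 and 1283 CPM in KO (0.29, standard error 0.09), with an mRNA value of 0.40.

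Among cell type markers the list level separated the groups for blood cells and oligodendrocyte precursors. Where a list was lower in both footprints and mRNA, fewer cells of a type and less RNA per cell cannot be told apart in these whole-brain libraries. Blood cell markers were the lowest list: 6 of 9 lay below and none above, with medians of -1.33 in footprints and -1.37 in mRNA, and the summed level of the 9 genes ran from 2503 to 7210 CPM in WT and from 1380 to 1755 CPM in KO. Hbb-bs, an adult β-globin gene, had 690, 1958 and 730 CPM in WT and 427, 501 and 410 CPM in KO (-1.33, standard error 0.34, adjusted p = 0.22), and the α-globin gene Hba-a1 568, 1671 and 591 CPM against 305, 376 and 281 CPM (-1.55, standard error 0.36). Slc4a1, the anion exchanger of red cells, had 2.04, 2.11 and 3.29 CPM against 0.885, 0.22 and 0.185 CPM, and Alas2, the erythroid enzyme of haem synthesis, overlapped. WT library 2 was the highest in both assays; without it the list's difference was -0.758 in place of -1.08. Globin genes are near-identical copies, so their reads cannot be assigned to 1 copy with certainty.

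Endothelial and mural cell markers had 4 of 18 below and none above, 10 lower at an unadjusted p under 0.05, and medians of -0.43 in footprints and -0.50 in mRNA. Their list levels overlapped, and the summed level was 849.5 to 1261 CPM in WT and 756 to 960.8 CPM in KO. Cdh5, the cadherin of endothelial junctions, had 37.5, 29.9 and 37.0 CPM against 25.9, 22.0 and 22.5 CPM (-0.59, standard error 0.13), and Ly6c1 33.8, 36.3 and 61.7 CPM against 27.2, 18.5 and 23.1 CPM (-0.98, standard error 0.23). Oligodendrocyte precursor markers were higher, with 4 of 8 above and none below and a median of 0.39 in footprints against 0.03 in mRNA. Their summed mRNA level was 146.1 to 189.9 CPM in WT and 158.9 to 188.9 CPM in KO. In kidney footprints, where 6 of these genes were tested, the median was 0.60. The cause was not tested. Pdgfra, the growth factor receptor that marks these cells, had 87.1, 74.2 and 99.3 CPM against 114, 128 and 126 CPM (0.49, standard error 0.12, adjusted p = 0.22), and Vcan, the proteoglycan versican, 46.4, 45.6 and 51.7 CPM against 65.7, 74.3 and 71.7 CPM (0.56, standard error 0.11, adjusted p = 0.211). The list's groups stayed apart in each of the 6 recalculations without 1 library. Markers of neurons, astrocytes, myelin, microglia and choroid plexus had medians of 0.04, 0.01, 0.06, -0.09 and -0.18, with overlapping list levels. No gene of the 10 marker lists was at 0 in all 6 libraries. Single neuronal markers differed in opposite directions: Gad1, which makes GABA, had 0.28 (standard error 0.11) and Slc17a7, a vesicular glutamate transporter, -0.26 (standard error 0.10).

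**Figure D5:**
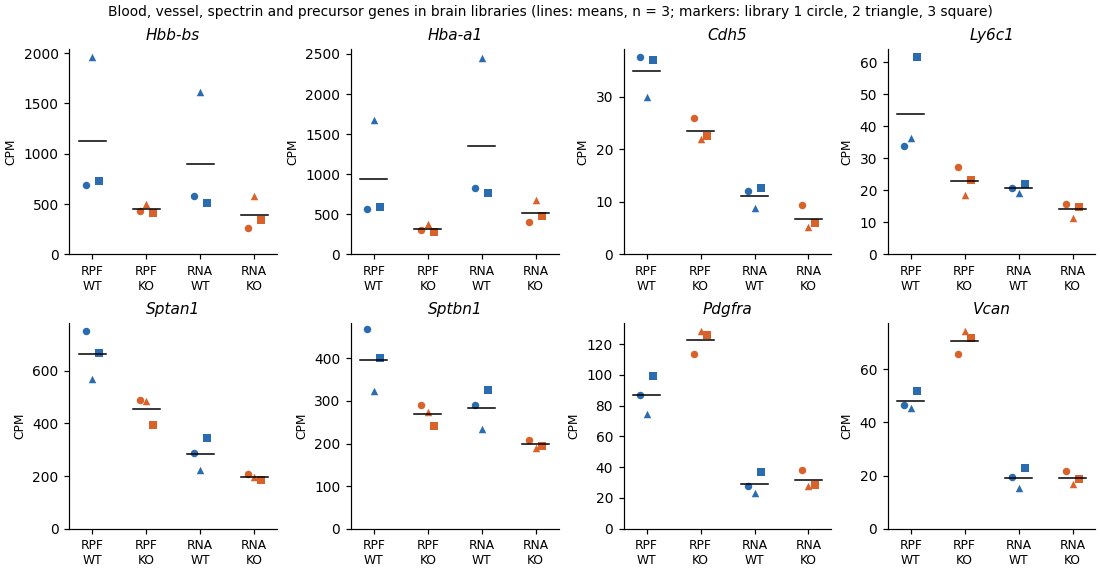
CPM (vertical axis, from 0) of 8 genes in the WT and KO brain Ribo-seq (RPF) and RNA-seq (RNA) libraries, with 1 marker per library and the mean as a line (n = 3). Globin, Cdh5, Ly6c1 and spectrin genes have lower KO means in both assays, with WT library 2 the highest for globins, and Pdgfra and Vcan are higher in KO in footprints, while their RNA points overlap.

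Lists of stress and regulation differed among themselves. A list of stress response genes, of which not all need carry a controlling upstream reading frame, had 3 of 26 above (11.5%) and 1 below (3.85%), with a median of 0.06. The share above was near the 10.5% of all genes. Besides Ifrd1, Asns, the asparagine synthetase, lay above with 216, 218 and 187 CPM in WT and 243, 292 and 284 CPM in KO (0.40, standard error 0.11). Targets of p53 had 1 of 23 above and 6 below (median -0.12), 1 of the 4 lists with all KO levels below WT, among them the proapoptotic Bax, with 25.8, 33.7 and 29.7 CPM against 22.6, 20.4 and 20.1 CPM (-0.49, standard error 0.13). Polyamine genes, several of which are under translational control, had 4 of 11 above and 1 below (median 0.13). Their list level lay above WT in all KO libraries, and this held in 3 of the 6 recalculations without 1 library. Amd1 and Azin1, which promote polyamine synthesis, were higher (0.54, standard error 0.15, and 0.42, standard error 0.12), and Smox, which degrades spermine, was the 1 below. Selenoproteins had none of 20 above and 3 below (median -0.16), including Selenow (-0.46, standard error 0.11) and Selenop (-0.44, standard error 0.13). Immediate early genes had none of 22 above, 1 below and a median of -0.16, with 19 values under 0, and Jund was the 1 below (-0.36, standard error 0.11). Hif1a, the hypoxia-inducible transcription factor, had 148, 148 and 161 CPM against 194, 234 and 249 CPM (0.57, standard error 0.11), and Dicer1, which processes microRNA precursors, 197, 240 and 135 CPM against 124, 97.3 and 117 CPM (-0.75, standard error 0.19); both were chosen after their values were seen.

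Families sharing a symbol stem, with at least 15 tested genes, gave 97 groups. The highest medians were those of Dhx (RNA helicases, 0.29, 5 of 16 above and none below), Nup (nucleoporins, 0.27, 7 of 20 above and none below) and Kdm (histone demethylases, 0.23, 6 of 18 above and none below). Dhx36, which unwinds G-quadruplexes, had 135, 119 and 134 CPM in WT and 161, 188 and 191 CPM in KO (0.47, standard error 0.11), and Kdm5b and Kdm5a had 0.58 (standard error 0.16) and 0.41 (standard error 0.11). The lowest were Olfr (olfactory receptors, -0.47, 3 of 25 below and none above), Serpina (serum protease inhibitors, -0.31, none of 17 above or below) and Cox (cytochrome oxidase, -0.23, 7 of 23 below and none above). Olfactory receptor footprints were few: Olfr645 had 2.78, 3.37 and 2.25 CPM in WT and 1.33, 0.33 and 0 CPM in KO. Serpina1a, made by the liver, had 199, 262 and 121 CPM in WT and 181, 56.4 and 78.2 CPM in KO, so the groups overlap.

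Brain mRNA gave fewer calls still. Of 15731 genes tested in RNA-seq, 1 passed the adjusted threshold (0.00636%), Rpl41, and 1143 had an unadjusted p under 0.05 (7.27%). The difference between the footprint and the mRNA change, taken as a change in translation efficiency, passed in 0 of 16757 genes with edgeR (0%), where 1322 had an unadjusted p under 0.05 (7.89%). DESeq2 called 5 genes there and limma voom 31. In kidney, by contrast, 1434 of 13439 genes passed for footprints (10.7%), 878 higher (6.53%) and 556 lower (4.14%), and 28.6% had an unadjusted p under 0.05. The difference between the brain and kidney footprint changes passed in 26 of 15569 genes (0.167%), 18 above 0 (0.116%) and 8 below (0.0514%), where 9.06% had an unadjusted p under 0.05, and these are given under the results for a closer look. Over the 12399 genes tested in both tissues the log2 fold changes of brain and kidney had a Spearman's rho of 0.445, given as a description across genes, which are not independent replicates.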

How the data were processed

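Ribo-seq of brain was analysed in 3 WT and 3 Rpl41 KO mice, with brain RNA-seq and kidney Ribo-seq of the same genotypes beside it. The authors digested lysates with RNase I, kept fragments of 17 to 34 nt, depleted rRNA, trimmed reads with cutadapt, aligned them with STAR to GRCm38 with multimapping reads allowed, and deposited raw counts per transcript from featureCounts. Reads of overlapping transcripts, paralogs and near-identical genes are therefore not unique to 1 gene.

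From these deposited counts, the coding transcript with the longest protein stood for each gene. Genes were filtered with filterByExpr, scaled by TMM and tested with edgeR 4.0.16 (quasi-likelihood, Benjamini-Hochberg, threshold 0.05) in R 4.3.3. The RPF minus RNA and the brain minus kidney differences were interaction terms. DESeq2 1.42.0, limma 3.58.1 (voom with quality weights), other filters and scalings, a replicate block and leaving out each library were alternatives. Log2 CPM values used a prior count of 2. Standard errors were back-calculated from edgeR's F statistic, as the absolute log2 fold change over its square root. Labels number the libraries but do not say that a number marks shared mice, so p-values measure the spread between these libraries. The steps were tested on simulated data.

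The text names genes that the study names, genes past the threshold, the 10 per direction with the smallest p among non-overlapping genes with a mean count of at least 100, per list the 2 most abundant members and the 2 with the smallest p, and 2 genes from each of the 3 highest and 3 lowest symbol families. Aqp8, Adamtsl3, Supt16, Kars, Suclg1, Rps27, Slc6a5, Hif1a, Dicer1, Sptan1, Sptb, Sptbn4 and the genes whose change differed between tissues were chosen after their values were seen. Some genes that these rules pick are not reported here. The genes and lists were chosen with earlier results of these data known.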

Additional observations from a re-analysis of the deposited data

Results flagged for a closer look

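The change in footprints differed between brain and kidney, by an interaction term in edgeR, in 26 of 15569 genes (18 above and 8 below 0). Log2 values here are the brain change minus the kidney change. Among genes of neurons, the difference was 2.83 for Nefh (neurofilament heavy chain), 4.16 for Calb2 (calretinin), 4.46 for Slc6a5 (glycine transporter), 3.28 for Pcsk1n (a neuroendocrine precursor) and 1.38 for Grin2b (a glutamate receptor subunit). Several of these had few kidney footprints. Calb2 had 1.96, 3.62 and 3.21 CPM in WT kidney and 0, 0.084 and 0.282 CPM in KO kidney. Nefh had 5.36, 7.72 and 6.41 CPM in WT kidney and 0.352, 1.18 and 1.13 CPM in KO kidney. In brain alone the log2 fold changes of Slc6a5 and Pcsk1n were 0.54 and -0.44. When a gene needed 10 or more reads in each brain and kidney library, only Hecw1 and D430041D05Rik were called, and no gene named here. Calb2, at 0 in a KO kidney library, cannot pass that filter. The difference was -1.10 for Sptan1, -1.05 for Sptbn1 and -1.13 for Shank3. These 3 calls, and the others below 0, were all lost with the replicate block (10 calls above 0 and 0 below) and without KO brain library 2 (13 and 0), KO brain library 3 (14 and 0), KO kidney library 2 (14 and 0) or KO kidney library 3 (7 and 0), each by edgeR. The call for Grin2b was lost with the block and in 10 of the 12 fits without 1 library. Sptan1 had 368, 318 and 365 CPM in WT kidney and 465, 574 and 512 CPM in KO kidney, higher in each KO library, whereas in brain each KO library was lower than each WT library.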

How the results depend on the processing

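The brain footprint comparison gave 2 calls with edgeR, 161 with DESeq2, 73 with limma voom, 15 with no filter beyond 1 count, 28 over all transcripts, 1 with counts summed over coding transcripts and 0 with at least 10 counts in every library (1924 at an unadjusted p under 0.05), a filter that removes Rpl41 and Lypd5 by construction. Leaving out 1 library gave 1 to 4 calls. For brain RNA the 1 call became 36 with DESeq2, 280 with limma voom, 3 with no filter, 12 over all transcripts and 0 with at least 10 counts (1118 at an unadjusted p under 0.05), and leaving out 1 library gave 1 to 4. For the footprint minus RNA difference the 0 calls became 5 with DESeq2 and 31 with limma voom, and 0 to 1 without 1 library. For brain minus kidney the 26 calls became 79 with DESeq2, 45 with limma voom, 68 over all transcripts and 2 with at least 10 counts, and 7 to 46 without 1 library, fewest without KO kidney library 3 and most without KO brain library 1. Lists without overlap numbered 13, and 10 to 32 without 1 library. The sign turned without 1 library for Sptbn4 (-0.33 to 0.0127), Gh (-6.92 to 3.64) and Pomc (-4.58 to 0.52), each a log2 fold change. Where not stated, the cause was not tested.

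Same-numbered WT and KO brain Ribo-seq libraries had deviations from their group means correlated at 0.0072, -0.108 and 0.113. Pairs with different numbers ran from -0.159 to 0.14. Deviations from means of 3 libraries cannot show whether same-numbered samples share a litter, batch or animal. With the replicate block the calls were 6 for brain footprints, 2 for brain RNA, 1 for footprints minus RNA (also 1 with the block by animal) and 10 for brain minus kidney. Depth limits genes with few reads, such as Lypd5, most.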
